A study of Mus musculus with 8 samples.

Results

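The genes described here are 6 matrix metalloproteinases (Mmp2, Mmp8, Mmp12, Mmp13, Mmp14 and Mmp19), 3 tissue inhibitors of metalloproteinases (Timp1, Timp2 and Timp3) and the related protease Adamts1, measured in mouse liver. They were taken by gene symbol, and all 10 were listed among the 24662 features of the CMV table and among the 27261 features of the αSMA table. Poly(A) RNA was sequenced from 8 liver libraries in 4 groups of 2, and every group had received an adeno-associated virus of serotype 6 (AAV6) according to its label. The CMV arm compared AAV6-CMV-NC with AAV6-CMV-shThbs2 (replicates 1 and 2 of each), and the αSMA arm compared AAV6-αSMA-NC with AAV6-αSMA-shThbs2 (replicates 3 and 4 of each). shThbs2 is a short hairpin RNA against Thbs2, which encodes thrombospondin-2, and NC libraries are the controls. The CMV promoter, of viral origin, works in most cells, whereas αSMA, smooth muscle actin, is made by activated hepatic stellate cells and also by vascular smooth muscle. Biomarker Technologies sequenced the CMV arm (HiSeq2500) and Frasergen the αSMA arm (DNBSEQ-T7), so the vector cannot be told apart from the platform and the provider when arms are compared. The study concerns thrombospondin-2 from stellate cells in liver fibrosis, and the labels used here give no strain, sex, age, dose, time after injection or injury model.

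Matrix metalloproteinases are zinc-dependent proteases that cut collagens, elastin and other matrix proteins, and many are secreted as inactive proenzymes. Tissue inhibitors of metalloproteinases bind the active site of the proteases, and in scarred liver the level of Timp1 is known to limit the breakdown of the scar. Within the family, Mmp14 is a membrane-bound collagenase that activates pro-Mmp2 at the cell surface with Timp2 as the adaptor, Mmp13 is the main interstitial collagenase of rodents, Mmp12 is macrophage elastase and Mmp8 is neutrophil collagenase. Mmp2 is a gelatinase, Mmp19 cuts basement membrane proteins, Timp3 is held in the matrix, and Adamts1 cuts proteoglycans such as versican and carries thrombospondin repeats. In mouse fibroblasts, thrombospondin-2 binds Mmp2 and aids its uptake through the receptor Lrp1.

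The 5 genes that fell in the αSMA arm are shown first by their promoters, since genes that move together may or may not share short motifs. RefSeq sequences (build GRCm38.p6) from 250 bases before to 50 bases after a transcription start were matched by symbol for 8 of the 10 genes, as 9 promoters of 300 bases each. Capitals mark TGANTCA, the motif bound by AP-1 factors, which reads the same on both strands. They also mark TATAAA, the letters of a TATA box, searched on both strands and at any position in the window. The promoters are Mmp13 at chr9:7272264-7272563 (+ strand), the second of the RefSeq starts of Mmp12 at chr9:7347124-7347423 (+), Mmp14 at chr14:54431348-54431647 (+), Timp1 at chrX:20869916-20870215 (+) and Adamts1 at chr16:85803064-85803363 (−).
Mmp13: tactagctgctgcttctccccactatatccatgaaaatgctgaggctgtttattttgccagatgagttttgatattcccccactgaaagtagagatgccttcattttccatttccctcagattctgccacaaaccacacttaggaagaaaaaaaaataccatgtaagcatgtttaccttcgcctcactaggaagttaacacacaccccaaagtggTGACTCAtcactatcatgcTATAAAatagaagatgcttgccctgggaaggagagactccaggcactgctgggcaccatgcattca
Mmp12: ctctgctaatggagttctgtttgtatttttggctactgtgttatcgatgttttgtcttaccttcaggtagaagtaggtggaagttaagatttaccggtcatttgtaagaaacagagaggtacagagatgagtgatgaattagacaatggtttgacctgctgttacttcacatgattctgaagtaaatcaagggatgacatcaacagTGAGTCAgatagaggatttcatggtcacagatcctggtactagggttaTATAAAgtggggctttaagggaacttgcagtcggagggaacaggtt
Mmp14: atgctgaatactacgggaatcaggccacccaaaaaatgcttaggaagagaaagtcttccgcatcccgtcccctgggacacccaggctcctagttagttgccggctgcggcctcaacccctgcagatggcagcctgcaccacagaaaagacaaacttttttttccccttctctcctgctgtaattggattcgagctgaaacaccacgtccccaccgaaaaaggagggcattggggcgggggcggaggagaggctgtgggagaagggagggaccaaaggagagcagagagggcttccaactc
Timp1: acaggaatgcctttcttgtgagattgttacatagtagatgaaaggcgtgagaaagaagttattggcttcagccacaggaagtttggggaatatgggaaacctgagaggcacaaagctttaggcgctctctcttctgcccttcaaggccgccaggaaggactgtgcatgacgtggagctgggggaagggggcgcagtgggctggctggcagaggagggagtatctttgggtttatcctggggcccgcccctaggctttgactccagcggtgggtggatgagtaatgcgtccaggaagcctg
Adamts1: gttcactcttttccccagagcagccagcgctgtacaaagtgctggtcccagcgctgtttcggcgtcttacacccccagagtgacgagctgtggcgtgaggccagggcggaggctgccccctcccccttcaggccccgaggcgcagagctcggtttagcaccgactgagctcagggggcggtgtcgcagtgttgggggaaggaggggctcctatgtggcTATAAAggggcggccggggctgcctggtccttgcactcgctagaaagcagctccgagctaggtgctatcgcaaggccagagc
Counted with the RefSeq start base as 0, Mmp13 held TGACTCA at −35 to −29 and TATAAA at −16 to −11. The second Mmp12 promoter held TGAGTCA at −44 to −38 and TATAAA at 4 to 9, after the RefSeq start. The first, at chr9:7344147-7344446 (+), held neither motif, and the values do not say which Mmp12 start was used. Adamts1 held TATAAA at −32 to −27 and had no TGANTCA in this window, and Mmp14 and Timp1 held neither motif. TGANTCA was in 2 of the 9 promoters and in 7.81% of 32851 mouse promoters of the same length, and TATAAA was in 4 of the 9 and in 13.6% of all. The 4 include Mmp12, with the match after the start, and Mmp8, with the match on the opposite strand across the start (−3 to 2). A match is a run of letters, not a shown binding site.

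Values are FPKM, fragments per kilobase of transcript scaled to the mapped fragments of the library, so they allow levels of different genes to be compared per length, but the depth of the libraries is unknown. The FPKM sum of a library ran from 491931 to 514641 in the CMV arm, whereas in the αSMA arm it was 941530 and 924060 in the controls against 1253737 and 1225210 in the knockdown. Mitochondrially encoded transcripts took 12.2% and 12.1% of this sum in αSMA controls against 23.1% and 24.6% in the αSMA knockdown, and 13.3% to 15.8% in the CMV libraries, and their part in the results was not tested. Thbs2 itself was at 1.27 and 0.922 FPKM in the CMV controls against 0.695 and 0.614 in the knockdown (adjusted p = 0.600). In the αSMA arm it was at 1.37 and 1.47 against 0.85 and 1.14 (adjusted p = 0.269), so in both arms its groups did not overlap and its change did not pass the test. All 10 hepatocyte markers were detected in both arms, and their summed level was 68630 and 68550 FPKM in the CMV controls against 52710 and 48830 in the knockdown, and 44220 and 32630 against 41370 and 36280 in the αSMA arm. Of the 10, Ttr, Cyp2e1 and Ass1 rose and Serpina1a fell in the αSMA arm, and 0 passed in the CMV arm. Over all tested features of the αSMA arm 13.3% rose and 22.8% fell.

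In the αSMA arm, 5 of the 9 tested genes fell and none rose: the proteases Mmp12, Mmp13, Mmp14 and Adamts1 and the inhibitor Timp1. A gene was tested where its mean over the 4 libraries of an arm was at least 1 FPKM, and it was said to have fallen or risen where the limma adjusted p on log2(FPKM + 1) was under 0.05. Over all 13012 tested features of this arm 22.8% fell and 13.3% rose, so falls were common in the arm as a whole. Mmp2, Mmp19, Timp2 and Timp3 did not pass the test, and Mmp8 lay under the filter. Both knockdown libraries lay below both controls in 9 of the 10 genes and in 8 of the 9 tested ones. They did so in 44.6% of the tested features, and Mmp2 was the gene whose groups overlapped. The median log2 change was −1.12 over the 10 genes, of which Mmp8 comes from the fit without a filter, and −0.16 over all tested features. In whole liver, fewer cells of a type and less RNA per cell cannot be told apart.

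**Figure D1:**
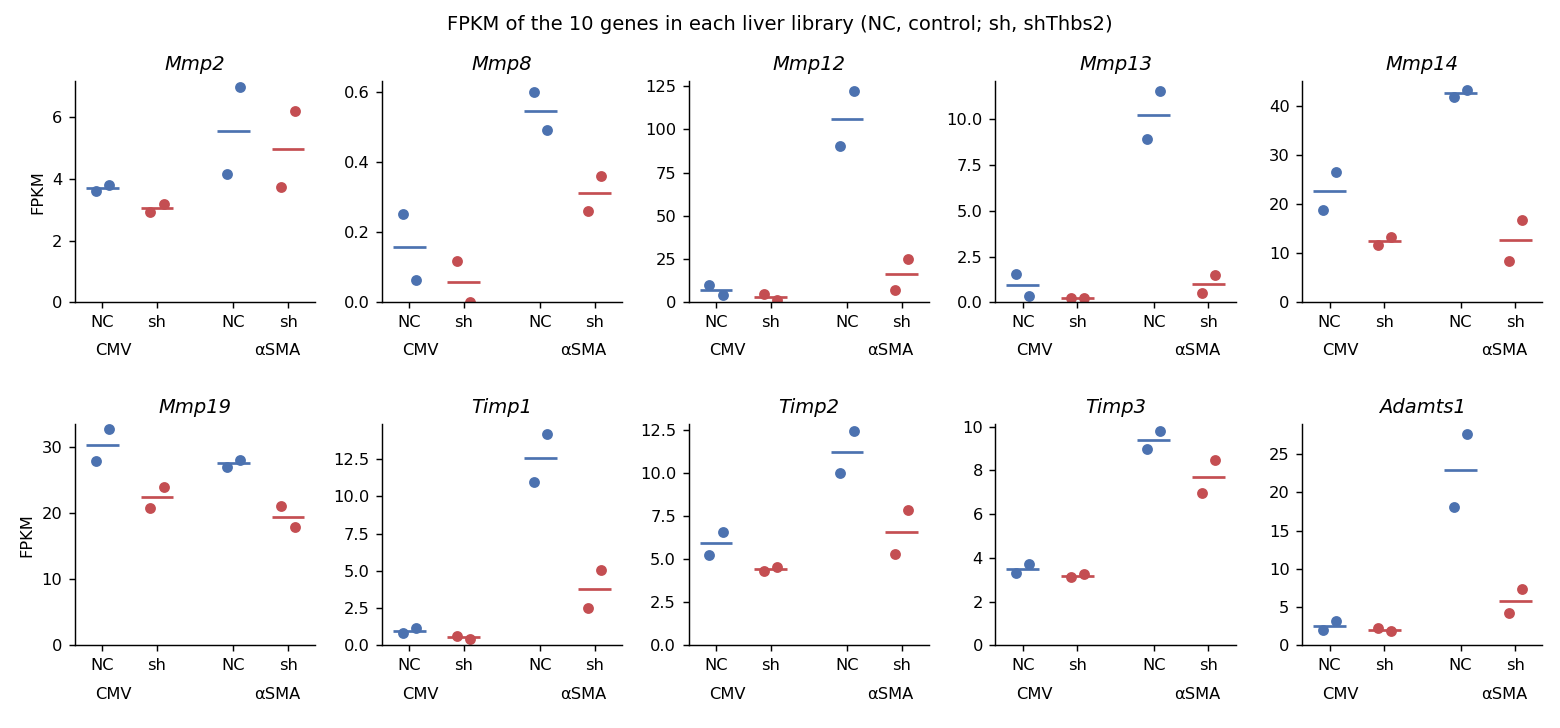
FPKM of each of the 10 genes (y axis, linear, starting at 0) in every library, as points, with the group mean as a bar, for control (NC) and knockdown (sh) libraries of the CMV and αSMA arms. In the αSMA arm the knockdown points of Mmp12, Mmp13, Mmp14, Timp1 and Adamts1 lie far below the control points, and the arms were normalised separately, so their levels are not to be compared.

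Mmp12 (chromosome 9, 7344381 to 7369499, + strand, GRCm38), the elastase of macrophages, was the most abundant of the 10 genes per length in the αSMA controls. It was at 90.6 and 122 FPKM in the controls against 7.34 and 25.03 in the knockdown. Both knockdown libraries lay below both controls, and their ratio to each other was wider than for the knockdown pairs of the other 9 genes. The change was −2.85 ± 0.54 (SE) on the log2 scale (adjusted p = 0.0178), and the control mean was 6.56 times the knockdown mean. Mmp12 made up 52.3% and 57.5% of the summed FPKM of the 6 Mmp genes in the controls against 17.7% and 37.0% in the knockdown.

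Mmp13 (chromosome 9, 7272514 to 7283331, + strand), the rodent interstitial collagenase, was at 8.93 and 11.5 FPKM in the αSMA controls against 0.49 and 1.48 in the knockdown. Its knockdown mean was 90.4% below the control mean, a greater share than for the other 9 genes, and the log2 change was −2.54 ± 0.29 (SE, adjusted p = 0.00745). Mmp13 passed the filter through its control values, since its knockdown mean was 0.985 FPKM.

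Mmp14 (chromosome 14, 54431612 to 54445364, + strand), the membrane-bound collagenase, was at 41.9 and 43.3 FPKM in the αSMA controls against 8.5 and 16.7 in the knockdown. The controls were close to each other and the knockdown libraries were lower and more spread. The change was −1.75 ± 0.31 (SE) on the log2 scale (adjusted p = 0.0154). Its partners in surface activation did not pass the test. Timp2 (chromosome 11, 118301069 to 118355740, − strand) was at 9.98 and 12.4 against 5.3 and 7.83 FPKM (log2 change −0.70, adjusted p = 0.0582). Mmp2 (chromosome 8, 92827291 to 92853420, + strand) was at 4.15 and 6.96 against 3.74 and 6.2 FPKM (log2 change −0.13, 95% confidence interval −0.89 to 0.63, adjusted p = 0.749). Timp2 missed the threshold with separated groups, whereas the groups of Mmp2 overlapped. For Mmp2, as for all of the 10 genes but Mmp8 and Mmp19, the library numbered 4 was the higher in both groups.

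Adamts1 (chromosome 16, 85793827 to 85803113, − strand), the proteoglycan protease, was at 18.1 and 27.6 FPKM in the αSMA controls against 4.24 and 7.31 in the knockdown (log2 change −1.83 ± 0.30 SE, adjusted p = 0.0139). Both knockdown values lay below both controls, at a mean 74.7% lower. Mmp19 (chromosome 10, 128790910 to 128800824, + strand), the basement membrane protease, was at 27.0 and 28.0 against 21.1 and 17.8 FPKM (log2 change −0.48, adjusted p = 0.0626). Its groups were separated but it did not pass the test. Mmp8 (chromosome 9, 7558456 to 7568485, + strand), the neutrophil collagenase, was at 0.6 and 0.49 against 0.26 and 0.36 FPKM (log2 change −0.24, adjusted p = 0.160 in the fit without a filter).

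Among the inhibitors, Timp1 (chromosome X, 20870166 to 20874735, + strand), a broad inhibitor that acts poorly on Mmp14, was at 11.0 and 14.2 FPKM in the αSMA controls against 2.5 and 5.07 in the knockdown. The change was −1.55 ± 0.30 (SE) on the log2 scale (adjusted p = 0.0187). Timp3 (chromosome 10, 86300372 to 86349506, + strand), which also inhibits ADAM proteases, was at 8.99 and 9.78 against 6.98 and 8.45 FPKM (log2 change −0.26, adjusted p = 0.247). The inhibitors thus differed in the size of their change, with Timp1 at 69.8% below the controls by mean FPKM, Timp2 at 41.4% and Timp3 at 17.8%. Timp1 made up 36.6% and 39.0% of the summed FPKM of the 3 inhibitors in the controls against 16.9% and 23.8% in the knockdown. Whether counting used strand was not stated, and Timp3 shares 1733 exonic bases with Syn3, Mmp19 shares 789 with Tmem198b and Mmp12 shares 157 with Mmp1b, all on the opposite strand. The mean FPKM in the αSMA arm was 0.26 for Syn3 and 1.76 for Tmem198b, below their partners.

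The order of levels within the αSMA arm changed between the groups. In the controls Mmp12 (mean 106 FPKM) stood above Mmp14 (42.6), and Mmp14 above Mmp19 (27.5), with no overlap between these neighbours, while Mmp19 and Adamts1 (22.9) overlapped. Timp1, Timp2, Mmp13 and Timp3 followed at 12.6, 11.2, 10.2 and 9.39 FPKM, each overlapping the next, above Mmp2 (5.56) and Mmp8 (0.545). In the knockdown Mmp19 (19.5), Mmp12 (16.2) and Mmp14 (12.6) came first and each overlapped the next. Timp3 was then the most abundant inhibitor at 7.72 FPKM, overlapping Timp2 at 6.57, and Timp1 at 3.79 was the lowest of the 3. Mmp13 at 0.985 and Mmp8 at 0.31 FPKM closed the order. The summed FPKM of the 6 Mmp genes was 173 and 212 in the controls against 41.5 and 67.6 in the knockdown, and that of the 3 inhibitors was 29.9 and 36.4 against 14.8 and 21.4. Protease over inhibitor, the ratio of these sums was 5.79 and 5.84 in the controls against 2.81 and 3.17 in the knockdown, as a description of these libraries. Mmp12 alone was 52.3% and 57.5% of the Mmp sum in the controls against 17.7% and 37.0% in the knockdown. The ratio thus leans on this 1 gene and does not describe the proteases as a set.

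These αSMA calls rested on having both controls. Without control 3 the adjusted p of Mmp12, Mmp13, Mmp14, Timp1 and Adamts1 lay between 0.0925 and 0.123, and without control 4 between 0.113 and 0.157, so that 0 of the 5 passed in either case. All features had 38 falls in the first case and 36 in the second, against 2962 with all 4 libraries. Without knockdown library 3, Mmp12, Mmp13 and Mmp14 passed (adjusted p = 0.0487, 0.0473 and 0.0473) and Timp1 and Adamts1 did not (0.0615 and 0.0685), and without knockdown library 4 all 5 passed. Without a filter on low values Mmp13 alone of the 10 passed (adjusted p = 0.0432), and the others of the 5 were between 0.0589 and 0.0722, in a fit that called 4.28% of 25319 features as lower. The log2 change of each of the 5 stayed below −1 in all of these fits.

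**Figure D2:**
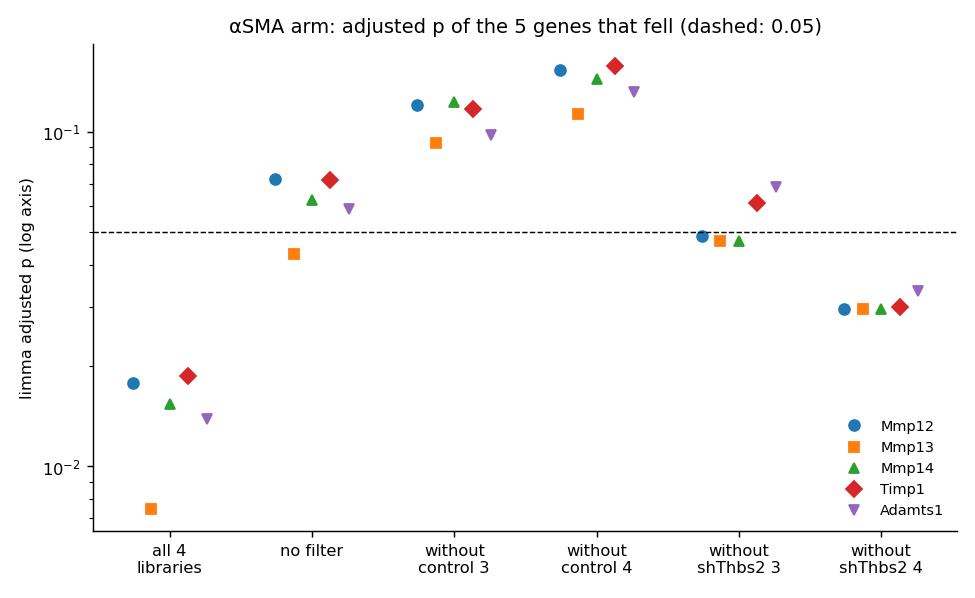
Adjusted p from limma (y axis, log scale) of the 5 genes that fell in the αSMA arm, with all 4 libraries, without a filter and without each library in turn, with a dashed line at 0.05. All 5 genes lie above the line when control 3 or control 4 is left out and below it without knockdown library 4.

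The 5 calls held under 4 scalings of the αSMA libraries, while the totals over all features moved. Rescaling each αSMA library to the same FPKM sum moved the median log2 change of all features to −0.51 and gave 5845 lower and 936 higher features, and rescaling to the same nuclear sum moved it to −0.33 with 4219 lower and 1298 higher. Median centring gave 1853 lower and 2514 higher at a median of 0.05, and quantile normalization 2309 and 1977 at −0.05, against 2962 and 1729 as deposited. Mmp12, Mmp13, Mmp14, Timp1 and Adamts1 fell in all 4 of these fits. Mmp19 (adjusted p = 0.00895) and Timp2 (0.0141) fell too with the same FPKM sum and with the same nuclear sum (0.0235 and 0.0317), and Timp3 with the same FPKM sum (0.0286). Of the 9 tested genes, 8 had a change below the median of all features, and Mmp2 turned to 0.09 with median centring and to 0.07 with quantile normalization.

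In the CMV arm, 0 of the 7 tested genes passed the test in limma, although the mean of all 10 was lower in the knockdown. Mmp14 came nearest, at 18.8 and 26.5 FPKM in the controls against 11.7 and 13.3 in the knockdown (log2 change −0.79 ± 0.19 SE, adjusted p = 0.296). Over all 10916 tested features 0% fell and 0.0183% rose, and 0% of the 18169 features fell without a filter. At an unadjusted p under 0.05 there were 1113 features, 488 of them lower, and among them were Mmp14 and Mmp19. With the replicate number as a block 3 features fell, of which 0 are among the 10 genes. Both knockdown libraries lay below both controls in 7 of the 10 genes and in 5 of the 7 tested ones, as in 17.5% of the tested features. The median log2 change was −0.36 over the 10 genes and −0.34 over the 7 tested ones, against 0.03 over all tested features. Mmp8, Mmp13 and Timp1, under the filter, come from the fit without it. When a library was left out, the log2 change of Mmp14 ran from −1.03 (without control 1) to −0.56 (without control 2).

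Of the proteases of the CMV arm, Mmp19 was the most abundant gene per length, at 27.8 and 32.7 FPKM in the controls against 20.8 and 24 in the knockdown (log2 change −0.42, adjusted p = 0.446). Mmp12 was at 9.91 and 4.01 against 5.06 and 1.12 FPKM (log2 change −1.04, adjusted p = 0.577), and its groups overlapped. Mmp13 was at 1.57 and 0.358 against 0.225 and 0.250 FPKM, under the filter (log2 change −0.59, adjusted p = 0.693 without it), with its 2 controls wide apart. Mmp2 was at 3.62 and 3.80 against 2.92 and 3.18 FPKM (log2 change −0.22, adjusted p = 0.636), separated but not past the threshold. Mmp8 was listed at 0.251, 0.0640, 0.119 and 0 FPKM (log2 change −0.13, adjusted p = 0.759 without the filter), with overlapping groups. Adamts1 was at 2.00 and 3.19 against 2.23 and 1.86 FPKM (log2 change −0.22, adjusted p = 0.751), and its groups overlapped too.

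The 3 inhibitors were also lower in both CMV knockdown libraries than in both controls, without passing the test. Timp1 was at 0.835 and 1.16 against 0.648 and 0.420 FPKM (log2 change −0.38, adjusted p = 0.596 in the fit without a filter). Timp2 was at 5.24 and 6.58 against 4.30 and 4.55 FPKM (log2 change −0.34, adjusted p = 0.533), and Timp3 at 3.30 and 3.73 against 3.12 and 3.24 FPKM (log2 change −0.11, adjusted p = 0.834). The summed FPKM of the 6 Mmp genes was 62.0 and 67.5 in the CMV controls against 40.9 and 41.9 in the knockdown. In the CMV controls the order was Mmp19, Mmp14, Mmp12, Timp2, Mmp2, Timp3, Adamts1, Timp1, Mmp13 and Mmp8. In that order Mmp12 and Timp2, Mmp2 and Timp3, and Timp1 and Mmp13 overlapped, and the other neighbours did not.

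**Figure D3:**
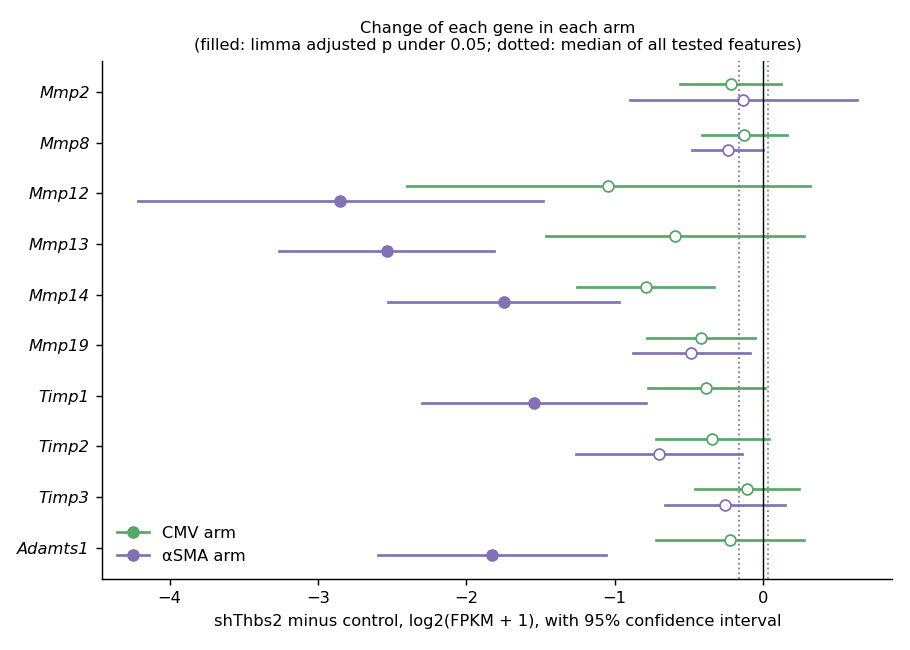
Log2 change of each gene (x axis, shThbs2 minus control on log2(FPKM + 1)) in the CMV arm and in the αSMA arm, with the 95% confidence interval from limma, filled where the adjusted p was under 0.05, and dotted lines at the median of all tested features. All 20 changes lie below 0, and the 5 filled points are αSMA values from −2.85 to −1.55.

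The arms share no library, so their effects could be averaged and set against each other in 1 model of all 8 libraries. Over both arms, 5 of the 7 genes tested in both had a mean effect that passed the test: Mmp12 (−1.95, adjusted p = 0.0120), Mmp14 (−1.27, 0.00318), Adamts1 (−1.02, 0.00676), Timp2 (−0.52, 0.0216) and Mmp19 (−0.45, 0.0147). The mean effect was below 0 and past the threshold in 20.9% of the 10245 genes of this model. Mmp2 (−0.18, adjusted p = 0.451) and Timp3 (−0.18, 0.192) did not pass. In the fit without a filter, where 14.4% of 15587 genes were called in this direction, Mmp13 (−1.57, adjusted p = 0.00842) and Timp1 (−0.96, 0.0164) passed and Mmp8 (−0.18, 0.1003) did not. The mean FPKM of each of the 10 genes was lower in the knockdown of both arms, as it was for 30.7% of the genes tested in both. Mmp8, Mmp13 and Timp1 are not among the genes tested in both. When each of the 8 libraries was left out in turn, the mean effect of Mmp12, Mmp14, Adamts1 and Mmp13 passed in all 8 fits, with the highest adjusted p at 0.0492, 0.0182, 0.0301 and 0.0415. Mmp19 did not pass without CMV knockdown library 1 (0.0657) or αSMA control 4 (0.0567), without either of which 3 of the 7 genes passed. Timp2 missed the threshold in 5 of the 8 fits and Timp1 in 4, with highest adjusted p at 0.0843 and 0.0622. In this model the αSMA effects of Mmp19 (adjusted p = 0.0276) and Timp2 (0.0175) passed as well. Over all 10245 genes of the model 3369 passed as lower in the αSMA arm, against 2962 of 13012 in the fit of that arm alone. The CMV effect in this model passed for 0 of the 7 genes.

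In 6 genes (Mmp13, Mmp14, Mmp19, Timp1, Timp2 and Timp3) both knockdown libraries lay below both controls in each arm. The same held for 10.2% of the genes tested in both arms, a set that leaves out Mmp13 and Timp1. For these 6 the two-sided exact permutation test within arms gave p = 0.0556, the smallest that its 36 assignments allow, and within 1 arm the smallest possible exact p is 0.333. Mmp8, Mmp12 and Adamts1 had an exact permutation p of 0.111, and Mmp2 of 0.389.

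The effect differed between the arms for Adamts1, whose log2 change was −0.22 in the CMV arm and −1.83 in the αSMA arm (difference −1.60 ± 0.39 SE, adjusted p = 0.0214). A difference below 0 passed the test in 17.4% of the genes of the model. In the fit without a filter, where 10% did, Mmp13 differed as well (−0.59 against −2.54, difference −1.94 ± 0.48 SE, adjusted p = 0.0401). The scale of log2(FPKM + 1) understates the change of a gene as low as Mmp13 in the CMV arm. By mean FPKM Mmp13 was 75.3% lower in the CMV knockdown and 90.4% lower in the αSMA knockdown. With a pseudocount of 0.1 its log2 changes were −1.37 (CMV) and −3.41 (αSMA). The Adamts1 difference did not pass without CMV control 1, either CMV knockdown library, αSMA control 4 or αSMA knockdown library 3, where its adjusted p was 0.0561 to 0.0813. That of Mmp13 passed without CMV control 1 (0.0391) or αSMA knockdown library 4 (0.0286) and did not in the other 6 fits, where it reached 0.125. For Mmp12 the difference was −1.81 with a 95% confidence interval from −3.80 to 0.19 (adjusted p = 0.156), for Timp1 −1.17 (0.0843) and for Mmp14 −0.96 (0.0998), none of which passed. Mmp19 changed by −0.42 and −0.48 in the arms, with a difference of −0.07 and an interval from −0.55 to 0.42. Timp2, Timp3, Mmp2 and Mmp8 had differences between −0.36 and 0.09 that did not pass. The control means of Mmp13 were 0.962 FPKM (CMV) and 10.2 FPKM (αSMA), from tables that were normalised separately, and what the vector, the platform or the provider adds to a difference cannot be told apart.

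Mmp13, Mmp12 and Mmp8 lie in the metalloproteinase gene cluster of chromosome 9, which spans 427 kb and holds 10 Mmp genes in the annotation (GENCODE M21). Neighbours did not all move alike in the αSMA arm. Mmp27, the neighbour of Mmp8, rose from 1.52 and 1.4 to 3.0 and 3.29 FPKM (log2 change 0.75, adjusted p = 0.0230). It did not pass without a filter (adjusted p = 0.0697), with the same FPKM sum (0.0602) or when any of the 4 libraries was left out (0.0526 to 0.146). Mmp7, matrilysin, was at 5.84 and 5.48 against 5.38 and 19.2 FPKM (log2 change 0.77, adjusted p = 0.290), with 1 high knockdown library. Mmp3 and Mmp10, the stromelysins, lay under the filter at 0.57 and 1.0 against 0.13 and 0.46 FPKM and at 0.48 and 1.08 against 0 and 0. Falls were thus measured at Mmp13 and Mmp12, which are 61 kb apart.

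**Figure D4:**
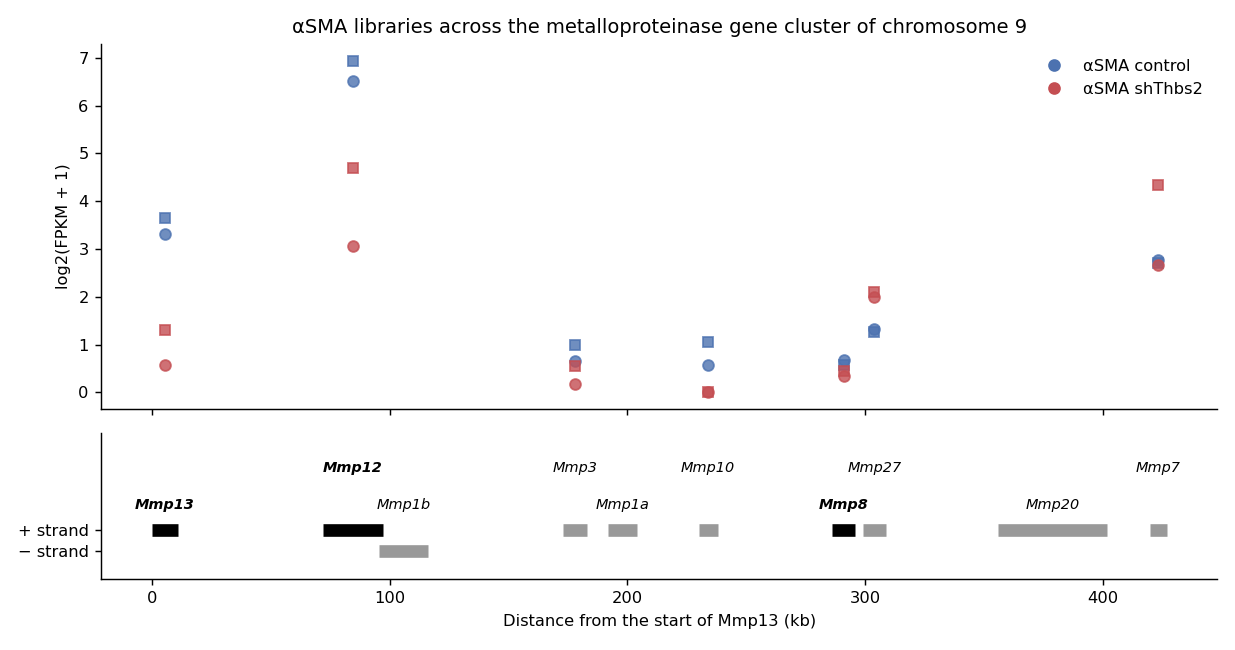
Level of each listed gene of the chromosome 9 cluster in the 4 αSMA libraries (y axis, log2(FPKM + 1); circles, replicate 3; squares, replicate 4) above a map of the genes by strand, with distance in kb from the start of Mmp13 and the genes described here in black. Mmp13 and Mmp12 are lower in both knockdown libraries, and Mmp27 is higher in both.

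Markers of monocytes and scar macrophages were lower in the αSMA knockdown, as was the elastase Mmp12. The 10 markers of monocytes and scar macrophages summed to 714 and 756 FPKM in the αSMA controls and to 216 and 377 in the knockdown, and 7 of the 10 fell. These were Chil3 (log2 change −2.86, adjusted p = 0.00881), Lgals3 (−2.22, 0.0149), Ly6c2 (−1.84, 0.0117), Itgam, an integrin chain of myeloid cells (−1.65, 0.00728), the chemokine receptor Ccr2 (−1.14, 0.0111), Itgax (−1.08, 0.0320) and Cd9 (−1.07, 0.0170). These falls are read against the 22.8% of all features that fell in the αSMA arm. The falls among the 10 markers numbered 3 without a filter and 7 with median centring or quantile normalization. They numbered 8 with the same nuclear sum and 9 with the same FPKM sum. The list median was −1.32, and it ran from −1.56 to −0.954 when an αSMA library was left out. The same markers summed in the CMV arm to 190 and 167 against 111 and 98.0 FPKM, and 0 of 8 tested passed. The 8 Kupffer cell markers summed to 423 and 236 against 312 and 320 FPKM in the αSMA arm, where Adgre1 fell (−0.95, adjusted p = 0.0181) and Clec4f rose (1.13, 0.0191). No list had a marker at 0 in all libraries of an arm, and the part of these cells in the Mmp12 result was not tested.

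Neutrophil markers, set beside Mmp8, summed to 100 and 155 FPKM in the αSMA controls against 95.2 and 131 in the knockdown, with 0 of 7 tested past the threshold in limma. Markers of stellate cells and myofibroblasts, set beside Mmp2, Mmp13, Mmp14 and Timp1, summed to 309 and 363 against 304 and 447 FPKM, and 4 of 13 tested fell, Acta2, Cygb, Pdgfrb and Tagln. Of the 13, 9 had a change below 0, with a median of −0.41 against −0.16 over all features, of which 22.8% fell. With median centring or quantile normalization 2 of the 13 fell and 1 rose. The falls numbered 7 with the same nuclear sum, 8 with the same FPKM sum and 1 without a filter. Acta2 encodes αSMA and was at 14.4 and 17.1 against 8.34 and 8.43 FPKM (log2 change −0.83, adjusted p = 0.0170), whereas Dcn, decorin, was at 187 and 210 against 219 and 344 FPKM (adjusted p = 0.196) and made up most of the sum in each library. The 14 stellate markers of the CMV arm summed to 118 and 137 against 101 and 112 FPKM and 0 of 12 tested passed.

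Markers of other liver cells had 2 falls and 1 rise in the αSMA arm and 0 calls in the CMV arm. These single calls are read against the 22.8% of all tested features that fell and the 13.3% that rose in the αSMA arm. Of 5 cholangiocyte markers tested all had a change below 0 and Sox9 fell (log2 change −2.32, adjusted p = 0.00847), and the list summed to 225 and 317 against 118 and 201 FPKM. Spp1 is in this list and also in that of monocytes and scar macrophages, so their sums are not separate readings. Endothelial markers summed to 171 and 119 against 130 and 134 FPKM, and of 10 tested Pecam1 fell (−0.63, 0.0491). Portal fibroblast markers summed to 15.3 and 17.5 against 20.4 and 29.3 FPKM, and of 6 tested Entpd2 rose (1.02, 0.0149). In the CMV arm these lists summed to 68.1 and 97.3 against 45.2 and 52.6 FPKM (cholangiocytes), 64.6 and 72.04 against 62.1 and 61.6 (endothelium) and 9.71 and 11.7 against 9.02 and 9.62 (portal fibroblasts). The part of these cells, of stellate cells and of neutrophils in the results was not tested.

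Around the 10 genes, the plasminogen system and the convertases that turn proenzymes into active proteases held 11 genes tested in the αSMA arm. Of these 5 fell and 1 rose, where 22.8% of all features fell and 13.3% rose, and the median log2 change was −0.64 against −0.16 over all features. The falls were 1 without a filter and 5 to 10 under the 4 scalings. The urokinase receptor Plaur was at 15.4 and 20.2 FPKM in the controls against 2.08 and 5.45 in the knockdown (log2 change −2.07, adjusted p = 0.0161). Its ligand urokinase, Plau (−1.17, adjusted p = 0.0176), and the tissue activator Plat (−0.93, 0.0179) also fell. The convertases Furin (−0.91, adjusted p = 0.0139), which can activate pro-Mmp14, and Pcsk6 (−0.72, 0.0217) fell, and plasma kallikrein Klkb1 rose (1.06, 0.0347). In the CMV arm 0 of 9 passed, with Plaur (−0.67, adjusted p = 0.309) and Serpinf2, the inhibitor of plasmin (−0.30, 0.455), nearest. Over all 9 lists around the 10 genes there were 26 falls and 5 rises in the αSMA arm, and no gene that passed changed sign under the 4 scalings. The falls and rises numbered 0 and 0 without αSMA control 3 or control 4, 2 and 2 without knockdown library 3, 8 and 2 without a filter and 49 and 2 with the same FPKM sum.

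Other proteases and inhibitors changed in both directions in the αSMA arm, as did its features as a whole. Over all tested features 22.8% fell and 13.3% rose, with a median log2 change of −0.16, and the small counts below are read against these. Of 4 other tested Mmp genes 1 rose (Mmp27) and 0 fell, with a median of 0.58, and Mmp23 was at 0.40 (adjusted p = 0.197). Of 5 other ADAMTS genes 2 rose, Adamts10 from 2.56 and 2.34 to 7.91 and 7.48 FPKM (log2 change 1.33, adjusted p = 0.00703) and Adamts5, an aggrecan-cutting protease, from 0.53 and 0.56 to 1.48 and 1.65 (0.73, 0.0319), with a list median of 0.23. Adamts5 passed the filter through its knockdown values, and without the filter its adjusted p was 0.0530. Of the 5 ADAM sheddases, which cut membrane proteins, Adam8 (−1.33, adjusted p = 0.0148) and Adam9 (−0.97, 0.0246) fell and the list median was −0.03. Tfpi2, a secreted inhibitor of serine proteases that also acts on metalloproteinases, rose from 24.1 and 31.0 to 83.3 and 74.8 FPKM (log2 change 1.497, adjusted p = 0.00818). Pzp, an α2-macroglobulin-type inhibitor, was at −0.61 (0.101).

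The CMV arm had 0 calls among these genes. Mmp15 (log2 change −0.27, adjusted p = 0.627) and Mmp23 (−0.16, 0.751) were nearest among the Mmp genes, Adamts10 (−0.43, 0.446) and Adamts7 (−0.34, 0.630) among the ADAMTS genes, and Adam8 (−0.83, 0.460) and Adam15 (−0.37, 0.512) among the sheddases. Pzp was at −0.56 (0.273) and Tfpi2 at 0.17 (0.742).

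Among genes of the matrix that these proteases cut, 4 of 17 tested fell and 0 rose in the αSMA arm, near the 22.8% of all features that fell, with a median of −0.53. The falls numbered 2 with median centring, 11 with the same FPKM sum and 1 without a filter. They were fibronectin Fn1, from 248 and 261 to 130 and 111 FPKM (log2 change −1.08, adjusted p = 0.0122), the basement membrane collagens Col4a2 (−0.89, 0.0239) and Col4a1 (−0.82, 0.0476), and the laminin chain Lamc1 (−0.64, 0.0316). Interstitial collagen genes were not among the genes that passed. The CMV median was −0.35, all 17 tested substrates had a change below 0 and 0 passed, with Col3a1 (−0.53, adjusted p = 0.309) and Col1a2 (−0.50, 0.385) nearest. Of 9 uptake receptors and matricellular partners, 3 fell in the αSMA arm, again beside 22.8% of all features, with a median of −0.39. With median centring, quantile normalization or robust fitting 2 fell, and without a filter 0. The 3 were Cd44, a hyaluronan receptor that docks proteases (−1.31, adjusted p = 0.0199), the integrin chain Itgb3 (−0.87, 0.0238) and thrombospondin-1, Thbs1 (−1.75, 0.0418). Of 5 tested in the CMV arm 0 passed, with Bsg, an inducer of metalloproteinases (−0.37, 0.517), and Cd44 (−0.29, 0.656) nearest.

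Transcription factors and cytokines known to induce metalloproteinase genes are read against the same 22.8% in the αSMA arm. Of 11 AP-1, ETS and runt-family factors tested, 5 fell and 0 rose, with a median of −0.81. The falls numbered 3 without a filter and 4 to 9 under the 4 scalings. The 5 were Jun, from 35.8 and 47.9 to 14.6 and 15.3 FPKM (log2 change −1.41, adjusted p = 0.00929), Runx1, a runt-family factor (−1.09, 0.0159), Jund (−0.68, 0.0230), Fosl2 (−0.81, 0.0275) and Ets1 (−0.64, 0.0361). TGANTCA, marked in the Mmp13 promoter and in the second of the Mmp12 promoters, is the motif of the AP-1 members Jun, Jund and Fosl2, and their part in the falls was not tested. Of 13 inducing cytokines and receptors, 7 fell and 0 rose, with a median of −0.66. The falls numbered 3 with median centring or quantile normalization, 4 with the replicate block, 2 without a filter and 10 with the same FPKM sum. Tgfb1 (−1.08, adjusted p = 0.0110) and its receptor Tgfbr2 (−1.10, 0.00881) were among them, as was Il6ra, a receptor chain for interleukin-6 (−0.93, 0.0137). Pdgfrb, Tgfb2, Osmr and Il1r1 fell by 0.56 to 1.01. In the CMV arm 0 of 8 factors and 0 of 9 cytokine genes passed, with Fos (−0.79, adjusted p = 0.373), Jun (−0.69, 0.418), Tgfbr2 (−0.37, 0.523) and Il1r1 (0.61, 0.542) nearest.

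**Figure D5:**
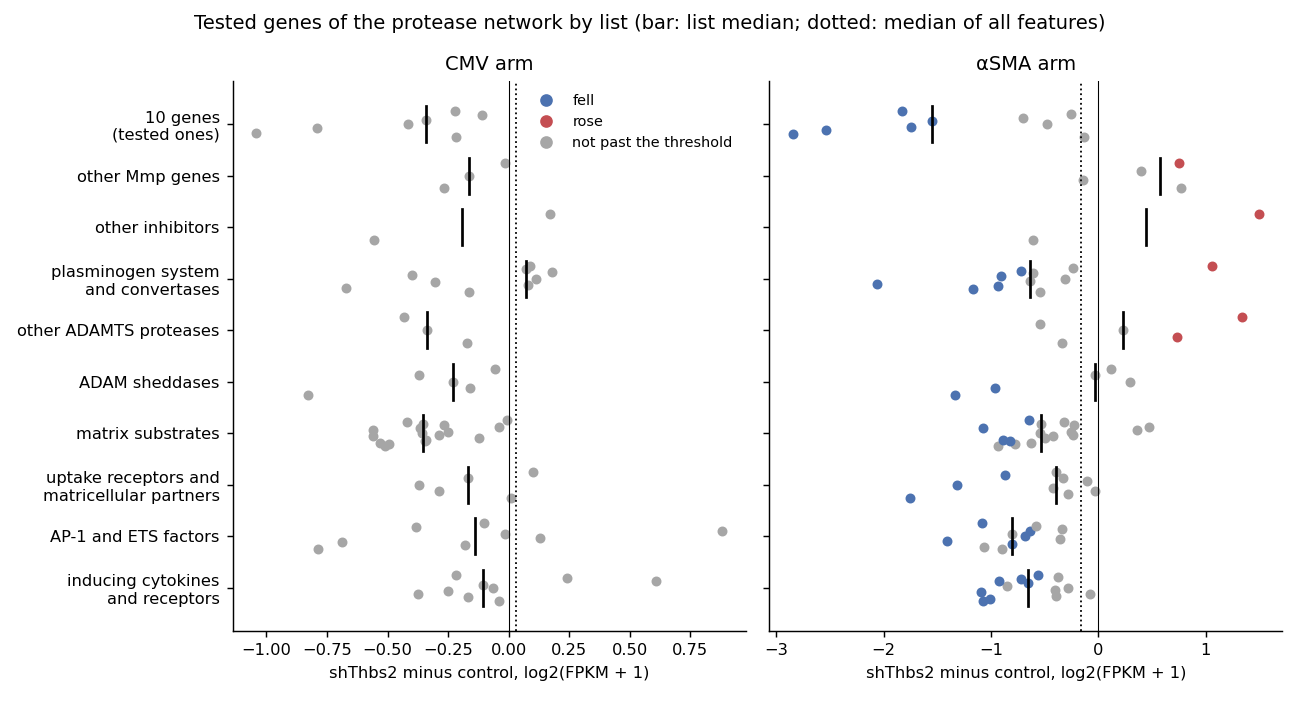
Log2 change (x axis, shThbs2 minus control on log2(FPKM + 1)) of each tested gene in the set of 10 and in 9 lists around it, in the CMV arm and in the αSMA arm on separate scales, coloured by whether it fell, rose or did not pass the test, with list medians as bars and the median of all features dotted. No gene is coloured in the CMV arm, and in the αSMA arm Mmp12 lies lowest at −2.85 and Tfpi2 highest at 1.497.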

How the data were processed

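Liver RNA of 8 libraries was analysed from 2 tables of FPKM values that the authors deposited, 1 per arm, each with its own normalisation. The submitters' processing notes name GRCm38, Bowtie2 2.3.5, HISAT2 2.1.0, Cufflinks and HISAT, without saying which made which table. Depth is unknown: of values under 0.2 FPKM in both controls, 11.4% (αSMA) and 0.844% (CMV) share the fullest step of the ratio, so no reads were recovered. With limma 3.58.1 (R 4.3.3), each arm was fitted on log2(FPKM + 1) (trended empirical Bayes, two-sided, 2 residual degrees of freedom, mean of at least 1 FPKM), with Benjamini-Hochberg adjustment over all tested features. Genes under the filter come from the fit without a filter. On simulated data with 8-fold changes the fit recovered 189 of 189 changed features in the CMV arm with 11 false calls, and 175 of 189 in the αSMA arm with 33, a false share above the nominal level. The simulated noise was taken from the controls alone. These counts therefore do not show how many smaller changes, such as those of the CMV arm, would be found. Log2 fold changes understate the change of low genes. Series text speaks of separate mice, so libraries were taken as animals; otherwise p-values measure only library spread.

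The 10 genes and the lists were chosen with earlier results of these data known. Of each pathway list the genes past the threshold are named (at most 6 per arm, by p), otherwise the 2 with the smallest p, and further genes were named after their values were seen. 1 gene of 1 pathway list is not reported here. Alternatives were another pseudocount, other filters, 4 scalings, robust fitting, a replicate block, the joint model and leaving out each library.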

Additional observations from a re-analysis of the deposited data

Results flagged for a closer look

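By a test of the difference itself in limma, the effects of the arms differed for 1 of the 7 genes tested in both, Adamts1. In the fit without a filter they differed for 2 of the 10 genes, Mmp13 among them. A difference below 0 passed for 17.4% of all genes in the first fit and for 10% in the second, so such differences were common. For Adamts1 the αSMA effect minus the CMV effect was −1.60 on the log2 scale (adjusted p = 0.0214), from 18.1 and 27.6 against 4.24 and 7.31 FPKM in the αSMA arm and 2.00 and 3.19 against 2.23 and 1.86 in the CMV arm. For Mmp13 it was −1.94 (adjusted p = 0.0401 in the fit without a filter), from 8.93 and 11.5 against 0.49 and 1.48 FPKM in the αSMA arm and 1.57 and 0.358 against 0.225 and 0.250 in the CMV arm. By mean FPKM Mmp13 was 90.4% lower in the αSMA knockdown and 75.3% lower in the CMV knockdown, where log2(FPKM + 1) understates the change. Leaving out a library moved the adjusted p to at most 0.0813 for Adamts1 and 0.125 for Mmp13. The arms also differ in sequencing platform and provider, which cannot be told apart from the vector. Groups of 2 are too small for a search for outlying libraries.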

How the results depend on the processing

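The count of genes past the threshold in the αSMA arm, 5, was 1 without a filter and 8 with libraries rescaled to the same FPKM sum, and it ran from 0 to 6 when a library was left out. In the CMV arm the count of 0 ran from 0 to 1 when a library was left out. For the mean effect of both arms the count of 5 ran from 3 to 5 when a library was left out. For the difference between arms the count of 1 became 2 without a filter, 0 with a mean of at least 5 FPKM, 2 with the same FPKM sum and 2 with the replicate block, and it ran from 0 to 3 when a library was left out. The cause of these shifts was not tested, except that leaving out a library leaves fewer samples.

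Direction reversed for Mmp2 in the αSMA arm, to 0.085 with median centring and 0.073 with quantile normalization, and its change ran from −0.446 to 0.182 when a library was left out. Adamts1 in the CMV arm ran from −0.465 to 0.019. Over the alternatives for single genes, 236 values kept direction and side of the threshold, 16 lost the threshold, 10 gained it and 5 reversed. The list counts and the per-gene effects over both arms were recomputed under these alternatives, a choice made after seeing the data.

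With the replicate number as a block, the count was 0 in the CMV arm, 6 in the αSMA arm (Timp2 passed, adjusted p = 0.0335), 5 for the mean effect and 2 for the difference. Deviations of libraries with the same number correlated at 0.0400 (CMV) and 0.00134 (αSMA) with 2 pairs per arm, so the numbers are not shown to pair the libraries. With 2 libraries per group and unknown depth, a gene that did not pass is not shown to be equal between groups.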
